A study of Homo sapiens with 9 samples.

Results

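The 45 genes described here encode the proteins that copy DNA in S phase, and their messenger RNA was measured in SW620 cells, an established human colon cancer line. They were taken by symbol from a list of replication genes, and all 45 were found among the 28307 genes of the count table. The cells, labelled wild type, were cultured in suspension on low-attachment plates in a defined medium with insulin, basic FGF and EGF, which all groups shared. One group (untreated) received no compound, and the other groups received streptomycin (SM) or dihydrostreptomycin (DSM), each at 120 µM for 48 h. SM is an aminoglycoside antibiotic, and DSM is its derivative in which an aldehyde group is reduced to an alcohol. Each group had 3 libraries, described by the submitters as biological replicates and numbered 1 to 3 in every group. The labels do not say what libraries of the same number share, and the cells are a bulk culture of a single line.

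DNA replication begins with licensing, in which the origin recognition complex, CDC6 and CDT1 load the ring-shaped MCM helicase onto origins. The helicase is then activated by CDC45 and the GINS complex, primase and the polymerases build the new strands, and the sliding clamp PCNA, set on DNA by its loader RFC, keeps the polymerases in place. Many of these genes are transcribed around the G1/S transition under E2F factors, and enzymes of nucleotide synthesis and chromatin assembly rise with them. In bulk RNA, a smaller share of cells in S phase and less of an mRNA in each such cell cannot be told apart.

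The promoters of 6 genes are shown because the results below turn on these genes: MCM6, E2F1, DUT and CDC45 stood among the largest differences between replicate numbers, and TYMS and TK1 were the members called after SM. PRIM1, GINS3, CDT1 and CHAF1B, whose promoters are not shown, had larger differences between replicate numbers than MCM6. The bases lie directly upstream of an annotated RefSeq start in GRCh38.p14, 5′ to 3′ on the gene's strand. They are chr2:135876444-135876603 (minus strand) for MCM6, chr20:33686386-33686485 (minus strand) for E2F1, chr15:48332097-48332196 (plus strand) for DUT, chr22:19479800-19479919 (plus strand) for CDC45, chr18:657553-657652 (plus strand) for TYMS and chr17:78187053-78187152 (minus strand) for TK1. For genes with several annotated starts a start whose window holds the searched letters was taken. Capitals mark the letters of an E2F motif or of a CCAAT box, in either orientation.
MCM6: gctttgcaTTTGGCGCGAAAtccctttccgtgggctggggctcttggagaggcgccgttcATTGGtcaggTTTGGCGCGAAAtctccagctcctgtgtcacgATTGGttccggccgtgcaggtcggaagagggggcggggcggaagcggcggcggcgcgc
E2F1: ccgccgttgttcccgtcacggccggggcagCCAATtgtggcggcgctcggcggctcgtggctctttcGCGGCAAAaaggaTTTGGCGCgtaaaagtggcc
DUT: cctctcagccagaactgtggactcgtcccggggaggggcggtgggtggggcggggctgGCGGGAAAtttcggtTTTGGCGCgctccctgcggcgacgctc
CDC45: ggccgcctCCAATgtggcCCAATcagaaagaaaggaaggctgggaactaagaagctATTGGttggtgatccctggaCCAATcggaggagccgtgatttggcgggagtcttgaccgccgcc
TYMS: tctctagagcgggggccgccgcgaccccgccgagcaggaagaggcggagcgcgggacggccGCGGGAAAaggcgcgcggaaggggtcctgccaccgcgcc
TK1: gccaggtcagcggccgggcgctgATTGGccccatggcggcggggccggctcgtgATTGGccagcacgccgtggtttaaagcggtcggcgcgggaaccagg

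The E2F motif was searched as TTTGGCGC, TTTCCCGC, TTTGCCGC and TTTCGCGC on both strands of a window around each start. That window held the 250 bases upstream and a shorter stretch downstream. The E2F letters of MCM2, CDC6 and GINS1 lay only in the downstream stretch. In MCM6 the stretch TTTGGCGCGAAA, which occurs 2 times above, holds overlapping matches on both strands. RefSeq promoters were at hand for 39 of the 45 genes, with 53 starts in all, and 22 of these 53 (41.5%) held an E2F motif, against 3.31% of 35116 promoters of all genes. CCAAT, the box bound by NF-Y, was found in 52.8% of the members' promoters and 34.6% of all promoters. The cell cycle element CHR, searched as TTTGAA and TTCGAA, was found in 5.66% of the members' promoters against 16.4% of all. These are matches of letters, and a promoter without one lacks only these letters in this window. In the windows shown, CDC45 and TK1 have CCAAT boxes and no match to the E2F letters.

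The libraries held 39315662 to 65562227 counted reads, and all 45 members passed the filter on low counts, with at least 418 reads for each in every library. Values are CPM, read counts divided by the library total and by the library's TMM factor and scaled to a common size, which are not corrected for gene length, so levels are compared between libraries and not between genes. Member levels spanned 10.6 to 671 CPM. Colon epithelial markers were present, with EPCAM at 414 to 463 CPM and KRT8 at 5760 to 7607 CPM, while CDX1, KRT20 and LGALS4 stayed under 1 CPM in every library. Defining markers of other cell types were at or near 0, with COL3A1 and DCN of fibroblasts at 0 in all 9 libraries and PTPRC of leukocytes at most at 0.108 CPM. Other genes of those lists reached the level of the lowest members, with CD68 up to 22.1 CPM, LUM up to 13.7 CPM and COL1A1 up to 13.3 CPM.

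SM and untreated cultures were compared to ask whether SM alters expression of the replication genes. TK1 and TYMS, which supply thymidine nucleotides by salvage and by synthesis, fell, and no member rose. These 2 of 45 members stand beside 2.74% of all 15619 genes tested that were called in either direction, 1.54% that were called lower and 1.2% that were called higher. The median difference of the members was a log2 fold change of -0.02, against -0.00 over all genes tested, with 27 members below 0 and 18 above, where 50.6% of all genes were below 0. Differences are log2 fold changes from edgeR's quasi-likelihood model, in which the replicate number is a block, and a call is an adjusted p (Benjamini-Hochberg over all genes tested) under 0.05.

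Thymidine kinase TK1 (chromosome 17, 78174079 to 78187204) was at 148, 139 and 159 CPM in untreated libraries 1 to 3, and at 133, 130 and 131 CPM in the SM libraries. The DSM libraries held 143, 140 and 138 CPM. All SM values lay below all untreated values, and the DSM values overlapped the untreated ones. The group means were 148 ± 9.90 CPM untreated and 131 ± 1.67 CPM with SM (SD, n = 3). The log2 fold change was -0.18 (SE 0.037, edgeR adjusted p = 0.00644), so that TK1 fell by 11.6% (95% interval -16.1% to -6.79%), and within the pairs of equal number it was -0.15, -0.10 and -0.28. Pair 3 had the widest gap, with untreated library 3 the highest of all 9. The TK1 call was lost without untreated library 3 (adjusted p = 0.247) or SM library 3 (0.0794), without all libraries numbered 3 (0.197), and without the block (1.00). Over all 21 alternatives the adjusted p ran from 8.72e-05 to 1.00, and the fold change stayed between -0.22 and -0.12.

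Thymidylate synthase TYMS (chromosome 18, 657653 to 673578) was at 132, 132 and 141 CPM in the untreated libraries and at 116, 129 and 119 CPM in the SM libraries. The DSM libraries held 127, 128 and 132 CPM. The SM values again lay below every untreated value, though SM library 2 came close to untreated library 2. The means were 135 ± 5.14 CPM and 122 ± 6.92 CPM (SD, n = 3), and the log2 fold change was -0.15 (SE 0.037, edgeR adjusted p = 0.0214), so that TYMS fell by 10.1%. Its pairs gave -0.19, -0.03 and -0.24. The TYMS call was lost without untreated library 1 (adjusted p = 0.178), untreated library 3 (0.314), SM library 1 (0.0869) or SM library 3 (0.184). It was also lost without all libraries numbered 1 (0.194) or 3 (0.364), and without the block (1.00), within a range of 0.000444 to 1.00 over the alternatives. TYMS shares 39.15% of its exonic bases with the antisense gene ENOSF1, and whether reads were assigned by strand is not given in the sources used here. ENOSF1 itself lay between 20.7 and 27.9 CPM and its log2 fold change with SM was 0.02, which was not called.

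The other nucleotide enzymes were RRM1 and RRM2, the subunits of ribonucleotide reductase, and DUT, which removes dUTP. RRM2 was at 349, 403 and 403 CPM untreated and 326, 376 and 376 CPM with SM, a log2 fold change of -0.10 that was not called (edgeR adjusted p = 0.121). RRM1 gave -0.08 and DUT -0.04, neither called. All 5 nucleotide enzymes among the members were thus below 0, with 2 called, where 50.6% of all genes were below 0 and 1.54% were called lower. After DSM all 5 were below 0 as well, with 0 called.

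Outside nucleotide supply no member was called after SM. The 10 licensing genes had log2 fold changes between -0.05 and 0.06, among them MCM2 at -0.00, MCM5 at 0.06 and the loading factor CDT1 at -0.05. Among the 6 helicase activation genes the values ran from -0.15 for GINS2 to 0.11 for GINS3, subunits of the same complex, and neither passed (edgeR adjusted p = 0.0557 and 0.270). GINS2 was at 49.6, 55.1 and 64.1 CPM untreated and 46.3, 50.2 and 55.5 CPM with SM, lower in all 3 pairs, with groups that overlap. It passed with only the 2 groups compared in the fit (0.0306), without a filter on low counts (0.0254) and without DSM library 3 (0.0408). PCNA gave 0.01, and its loader subunit RFC5 gave -0.12 (adjusted p = 0.0988), a value called only without SM library 3 (0.0407).

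Among the 8 polymerase and primase genes the log2 fold changes with SM lay between -0.07 and 0.05. POLA1, the catalytic subunit of polymerase alpha, was at 145, 145 and 145 CPM untreated and 142, 132 and 140 CPM with SM, groups that do not overlap though the gene was not called. The 3 lagging strand genes FEN1, LIG1 and RPA2 lay between 0.00 and 0.05. SLBP, which binds the stem-loop of histone mRNA, gave -0.07, the lowest of the 4 chromatin genes. The G1 cyclins gave -0.13 for CCNE1 and -0.14 for CCNE2, and the transcription factor E2F1 gave 0.03, none of them called. Unadjusted p was under 0.05 for 10 members, 9 of them lower, against 14.8% of all genes, and 17 members were lower in all 3 pairs, against 18.9% of all genes. Groups did not overlap for 3 members (TK1, TYMS and POLA1), against 6.74% of all genes.

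**Figure D1:**
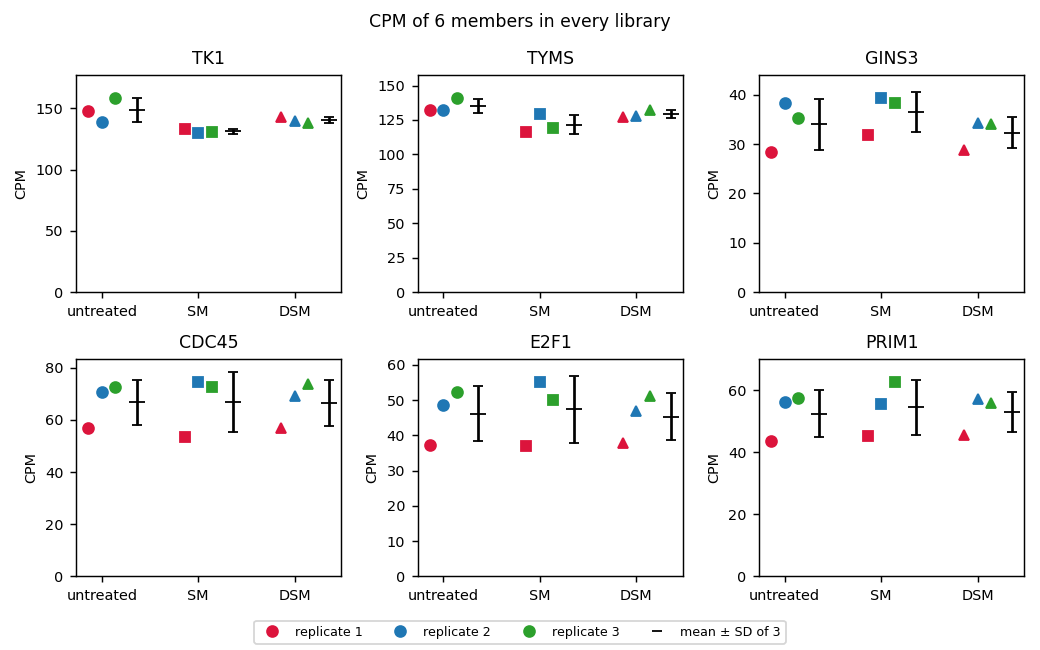
Level in CPM (vertical axis, from 0) of TK1, TYMS, GINS3, CDC45, E2F1 and PRIM1 in the untreated, SM and DSM libraries (horizontal axis), coloured by replicate number, with the mean ± SD of the 3 libraries of each group beside them. TK1 and TYMS were lower in every SM library than in every untreated library, while CDC45, E2F1 and PRIM1 were lowest in the library numbered 1 of each group.

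A further 66 genes of replication and S phase, listed by role, were tested beside the members. After SM, 1 of them (1.52%) was lower and 0 were higher, beside 1.54% and 1.2% of all genes. The share called lower was thus near that over all genes. The gene called was PCLAF, a PCNA-associated factor, at 39.1, 36.4 and 39.0 CPM untreated and 34.3, 32.9 and 33.1 CPM with SM. These groups did not overlap, and the log2 fold change was -0.19 (SE 0.043, edgeR adjusted p = 0.0123). The PCLAF call was lost without untreated library 1 (0.108), untreated library 3 (0.208) or SM library 3 (0.0787), without all libraries numbered 1 (0.102) or 3 (0.218), and without the block (1.00). All 6 further nucleotide enzymes were below 0, between -0.10 and -0.01, with none called, and after DSM 5 of these 6 were below 0. MKI67, a marker of cycling cells, gave -0.12 (adjusted p = 0.0965), which was called without SM library 1 (0.0265) and without a filter on low counts (0.00344).

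DSM and untreated cultures were compared in the same way, against the same untreated libraries. No member was called, and no gene at all was called (0% of 15619), with DESeq2 and limma voom giving 0 calls too. At an unadjusted p under 0.05 edgeR gave 6 members, all lower, against 4.16% of all genes. The members had a median log2 fold change of -0.02 against -0.00 for all genes, with 30 below 0 and 15 above, where 50.4% of all genes were below 0. The 95% intervals of the 45 members reached from -11.7% to 12.8%, so larger changes of a member lay outside its interval.

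The 5 members with the smallest p after DSM were DUT, GINS2, CDT1, SLBP and MCM2, with log2 fold changes of -0.11, -0.09, -0.08, -0.08 and -0.07, all at an edgeR adjusted p of 0.999. DUT was at 114, 135 and 143 CPM untreated and 106, 130 and 127 CPM with DSM, groups that overlap. CDT1 was at 89.5, 101 and 109 CPM untreated and 82.9, 101 and 99.6 CPM with DSM, which overlap as well. By role, the licensing genes lay between -0.08 and 0.01 and the 5 nucleotide enzymes between -0.11 and -0.04. TK1 gave -0.08 and TYMS -0.07. PCNA gave -0.07, MCM5 -0.02, RRM2 -0.06, CCNE1 -0.01, CCNE2 0.06 and E2F1 -0.02. None of the 66 further genes was called, and MKI67 gave 0.04.

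SM and DSM, which differ by the aldehyde of SM and the alcohol of DSM and were given at the same dose and time, were compared as 1 pair. GINS3 was higher with SM than with DSM, and no member was lower. This 1 of 45 stands beside 3.88% of all genes called, 1.73% higher and 2.15% lower with SM. GINS3 (chromosome 16, 58392471 to 58406147), a GINS subunit, was at 31.8, 39.4 and 38.4 CPM with SM and 28.7, 34.2 and 34.0 CPM with DSM, and the untreated libraries held 28.3, 38.4 and 35.4 CPM. The groups overlap because each library numbered 1 was the lowest of its group, and within the pairs the difference was 0.15, 0.20 and 0.17. The log2 difference was 0.17 (SE 0.046, edgeR adjusted p = 0.0323), or 12.8% (95% interval 5.62% to 20.5%).

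That call of GINS3 was lost without untreated library 1 (adjusted p = 0.0506), untreated library 3 (0.0691), SM library 1 (0.0761), SM library 3 (0.116), DSM library 2 (0.241) or DSM library 3 (0.123). It was also lost with only the SM and DSM libraries in the fit (0.0905), without all libraries numbered 1 (0.0755), 2 (0.162) or 3 (0.227), and without the block (1.00), and the value stayed between 0.14 and 0.20.

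For the other 44 members SM and DSM did not differ past the threshold, and the 95% intervals of all 45 lay within -0.32 to 0.27 on the log2 scale, which leaves room for differences of that size. The nearest was CCNE2 at -0.19 (edgeR adjusted p = 0.0646), at 16.8, 16.2 and 18.9 CPM with SM and 18.3, 20.5 and 20.7 CPM with DSM. CCNE2 passed without a filter on low counts (0.0343), and it shares 37.05% of its exonic bases with the antisense gene INTS8. INTS8 was at 42.0, 33.5 and 38.9 CPM with SM and 41.9, 38.6 and 39.6 CPM with DSM. Within the pairs INTS8 differed by 0.00, -0.20 and -0.03, and CCNE2 by -0.12, -0.34 and -0.13. TK1 differed by -0.10 (adjusted p = 0.166) and TYMS by -0.09 (0.225), so the fall of either gene against untreated was not shown to be particular to SM. TYMS passed without SM library 2 (0.0140). PCNA differed by 0.09 (adjusted p = 0.245) and passed without SM library 1 (0.0264) or without all libraries numbered 1 (0.0384). MCM2 gave 0.07, MCM5 0.08, CDT1 0.04, RRM2 -0.04, CCNE1 -0.12, E2F1 0.06 and SLBP 0.00. The SM and DSM libraries did not overlap for 2 members, TK1 and CCNE1, against 6.56% of all genes. None of the 66 further genes was called.

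MKI67 was lower with SM than with DSM, at 1069, 931 and 1010 CPM against 1142, 1103 and 1108 CPM, groups that do not overlap. Its log2 difference was -0.16 (SE 0.037, edgeR adjusted p = 0.0158). The MKI67 call was lost without SM library 2 (0.114), DSM library 2 (0.101) or DSM library 3 (0.0994), without all libraries numbered 2 (0.158) or 3 (0.142), with only these 2 groups in the fit (0.0540) and without the block (1.00).

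**Figure D2:**
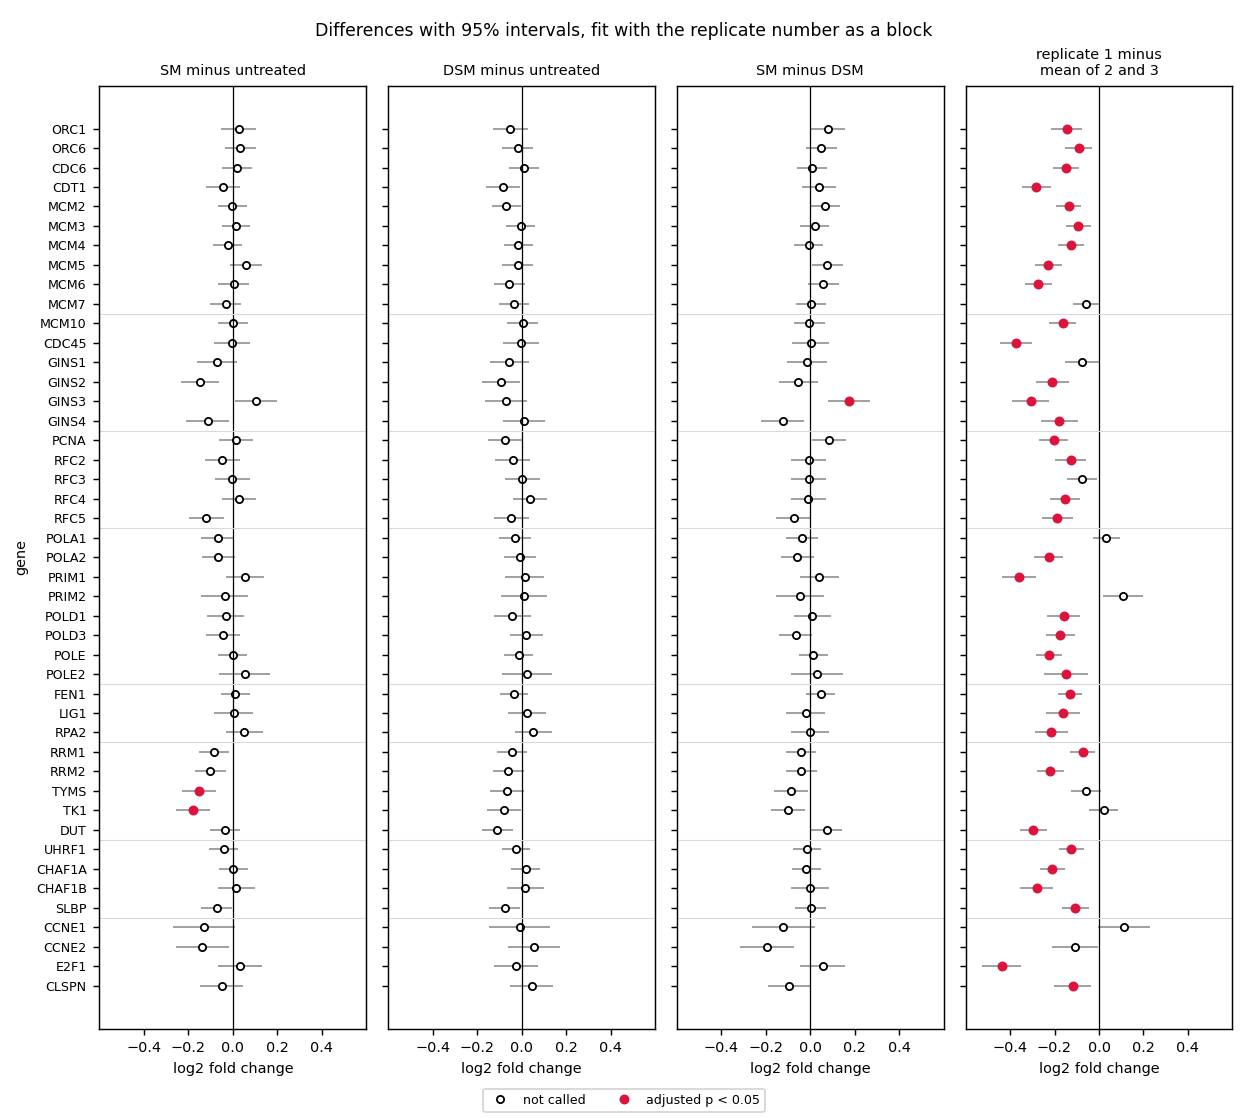
Log2 fold change (horizontal axis) with its 95% interval for each of the 45 members (vertical axis, ordered by role and separated by lines) in 4 comparisons, filled red where the adjusted p was under 0.05. The filled points are TK1 and TYMS for SM minus untreated, none for DSM minus untreated, GINS3 for SM minus DSM, and 36 members, all below 0, for the libraries numbered 1 against those numbered 2 and 3.

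The libraries numbered 1 in the 3 groups were compared with those numbered 2 and 3, at equal weight of the groups. Most members were lower in the libraries numbered 1: 36 of 45 were called lower and 0 higher, against 20.3% of all genes called lower, 21.7% called higher and 42% in either direction. The members' median log2 fold change was -0.15, against -0.00 for all genes. In 35 members all 3 libraries numbered 1 lay below the other 6, which was so for 15.5% of all genes, and the summed level of the 45 genes was 6402 to 6562 CPM in the libraries numbered 1 and 7040 to 7333 CPM in the others. If a number stands for a round of culture, there was only 1 round numbered 1, and the p-values cover the spread of libraries within numbers and not between rounds.

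The largest difference between replicate numbers among the members was in E2F1, a transcription factor of many replication genes. Whether its level had a part in the differences of the other members was not tested. E2F1 (chromosome 20, 33675477 to 33686385) was at 37.3, 36.8 and 37.9 CPM in the untreated, SM and DSM libraries numbered 1. The other libraries held 48.6 and 52.4 CPM untreated, 55.1 and 50.0 CPM with SM, and 46.8 and 51.0 CPM with DSM. The libraries numbered 1 were alike and all below the other 6. The log2 fold change was -0.44 (SE 0.043, edgeR adjusted p = 1.65e-08), and within the groups it was -0.43, -0.51 and -0.37.

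CDC45 (chromosome 22, 19479466 to 19520612), which joins the helicase when it is activated, was at 56.8, 53.5 and 56.7 CPM in the untreated, SM and DSM libraries numbered 1. The other 6 libraries lay between 69.3 and 74.6 CPM, with a median of 72.7 CPM, so the ranges did not overlap. The log2 fold change was -0.37 (SE 0.035, edgeR adjusted p = 6.95e-09). PRIM1, the catalytic subunit of primase, was at 43.8, 45.3 and 45.4 CPM in the libraries numbered 1 against 55.5 to 62.7 CPM in the others, a log2 fold change of -0.36 (SE 0.037, edgeR adjusted p = 3.39e-08). Its partner PRIM2, by contrast, was 29.4 to 30.8 CPM in the libraries numbered 1 and 26.5 to 30.6 CPM in the others, with a log2 fold change of 0.11 that was not called (adjusted p = 0.0518). PRIM2 was called higher under 6 of 18 alternatives: without SM library 3 (0.0261) or DSM library 2 (0.0140), without a filter on low counts (0.0446), with a stricter filter (0.0469), with limma voom (0.0499) and against the libraries numbered 3 alone (0.0422).

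Among the licensing genes 9 of 10 were called lower, MCM7 at -0.06 being the exception, which was called with library totals alone (adjusted p = 0.0199). MCM6, a helicase subunit, was at 144, 141 and 139 CPM in the untreated, SM and DSM libraries numbered 1 and 164 to 181 CPM in the others, and CDT1 was at 89.5, 82.4 and 82.9 CPM against 99.6 to 109 CPM. Neither gene's ranges overlapped, and the log2 fold changes were -0.27 and -0.28. MCM5 gave -0.23 and MCM2 -0.14, both called. Of the helicase activation genes 5 of 6 were called, GINS1 at -0.08 being the exception. GINS3 gave -0.31, with 28.3 to 31.8 CPM in the libraries numbered 1 against 34.0 to 39.4 CPM.

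PCNA was at 334, 320 and 330 CPM in the untreated, SM and DSM libraries numbered 1 and higher, at 348 to 397 CPM, in the others, a log2 fold change of -0.20 (SE 0.032, edgeR adjusted p = 1.78e-05). Of the clamp and loader genes 4 of 5 were called, including RFC5 at -0.19, and RFC3 at -0.08 was not. Of the 8 polymerase and primase genes 6 were called, among them POLA2, the accessory subunit of polymerase alpha, at -0.23. PRIM2 and POLA1 were not called. All 3 lagging strand genes were called, with RPA2, a subunit of the single-strand binding protein, at -0.21 and the ligase LIG1 at -0.16. The 4 chromatin genes were all called, including CHAF1B at -0.28 and CHAF1A at -0.21, subunits of the chromatin assembly factor, and SLBP at -0.11. The SLBP call was lost without untreated library 1 (0.106) and against the libraries numbered 3 alone (0.147).

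The nucleotide enzymes were divided. DUT was at 114, 109 and 106 CPM in the untreated, SM and DSM libraries numbered 1 against 127 to 143 CPM in the others, a log2 fold change of -0.30 (SE 0.029, edgeR adjusted p = 2.42e-08). RRM2 gave -0.22 and RRM1 -0.07, both called. RRM1 was at 254 to 270 CPM in the libraries numbered 1 and 261 to 286 CPM in the others, which overlap. The RRM1 call was lost against the libraries numbered 2 alone, and it was not followed under other filters, scalings or left-out libraries. TK1 gave 0.02 and TYMS -0.06, neither called, and in these the libraries numbered 1 lay within or across the range of the others. The members called after SM were thus among the 9 that were not called between replicate numbers. Scaled to library totals alone, TK1 gave -0.00 and TYMS was called lower (adjusted p = 0.0380), with 41 members lower in all.

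The G1/S genes were divided as well. CLSPN, a checkpoint mediator, gave -0.12 (edgeR adjusted p = 0.0220), while CCNE2 gave -0.11 and CCNE1 0.11, neither called. CCNE1 was at 13.1, 11.7 and 12.5 CPM in the untreated, SM and DSM libraries numbered 1 and 10.6 to 12.4 CPM in the others, which overlap. The CLSPN call was lost without untreated library 1 (0.102), untreated library 2 (0.0559), SM library 3 (0.0833), DSM library 1 (0.201) or DSM library 2 (0.0607), against the libraries numbered 3 alone (0.0596) and with DESeq2 (0.152). CCNE2 was called lower without SM library 2 (0.0189), against the libraries numbered 3 alone (0.0454) and with library totals alone (0.0347).

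**Figure D3:**
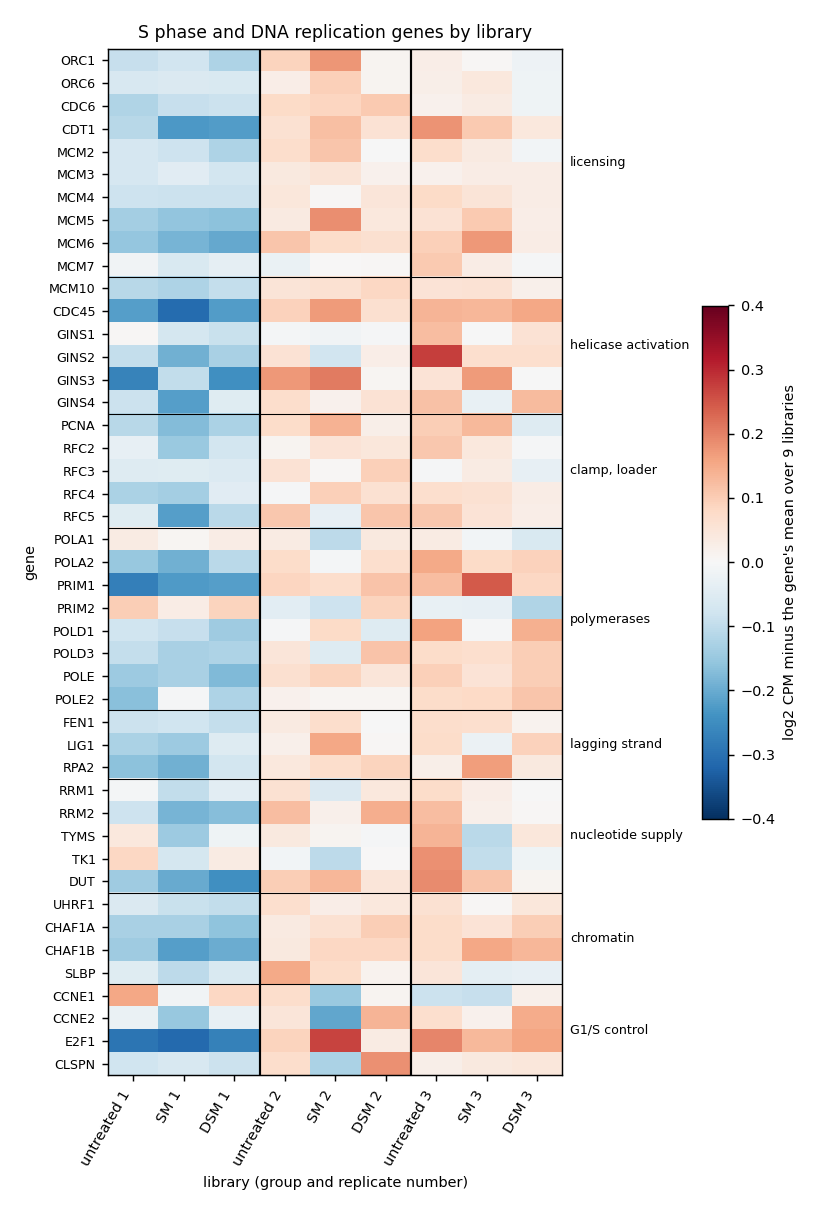
Log2 CPM of each of the 45 members (rows, ordered by role) in each of the 9 libraries (columns, by group and replicate number), as the difference from the gene's mean over all libraries. The columns numbered 1 are below the mean in most rows of every group, with a mean over members of -0.09, -0.13 and -0.10 in the untreated, SM and DSM libraries.

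The difference held within each treatment. Library 1 was below the mean of libraries 2 and 3 in 43 of 45 members in the untreated group, 41 with SM and 41 with DSM, with medians of -0.16, -0.17 and -0.14. Over all genes tested 49.8%, 50.2% and 49.6% were below 0 in these groups, with medians of 0.00, -0.00 and 0.00. Libraries 3 and 2 did not differ past the threshold in any member (0 of 45, against 3.68% of all genes), and 5 members had an unadjusted p under 0.05 in edgeR's test, against 16.7% of all genes. The 11 members followed in every comparison (PCNA, MCM2, MCM5, RRM2, TYMS, TK1, CDT1, CCNE1, CCNE2, E2F1 and SLBP) had values between -0.09 for SLBP and 0.08 for CCNE2 in that comparison. Members with the E2F letters in a promoter had a median of -0.15 between the libraries numbered 1 and the others (21 genes), and so did members without them (18 genes, median -0.15).

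**Figure D4:**
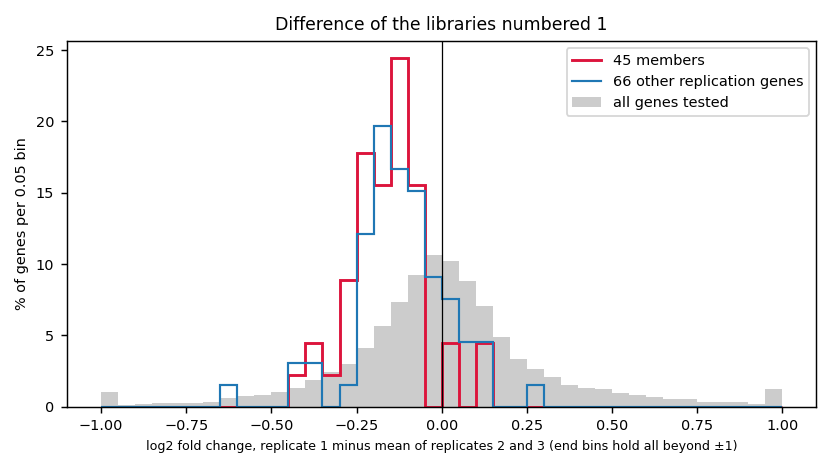
Distribution of the log2 fold change of the libraries numbered 1 against those numbered 2 and 3 (horizontal axis), as the percent of genes in each bin (vertical axis), for all genes tested (grey), the 45 members (red) and 66 further replication genes (blue), with values beyond the axis placed in the end bins. The medians are -0.00 for all genes, -0.15 for the members and -0.14 for the further genes.

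The 66 further genes of the pathway lay mostly on the same side. In the libraries numbered 1, 41 of them were lower and 3 were higher, against 20.3% and 21.7% of all genes, with a median log2 fold change of -0.14. In 35 of them all 3 libraries lay below the other 6, against 15.5% of all genes. The replication fork factor TONSL was at 78.3, 81.2 and 78.0 CPM in the untreated, SM and DSM libraries numbered 1 against 102 to 116 CPM, a log2 fold change of -0.44 (SE 0.034, edgeR adjusted p = 2.43e-10). The transcription factor E2F2 gave -0.45. The alternative clamp loader genes CHTF18 and DSCC1 gave -0.36 and -0.25, the ribonuclease H2 genes RNASEH2B and RNASEH2A -0.25 and -0.21, and the fork protection gene TIMELESS -0.21. RECQL4 gave -0.22, WDHD1 -0.18, MCMBP -0.18, MCM8 -0.16, POLE3 -0.18, DCTPP1 -0.22 and the histone chaperone ASF1B -0.15, all called.

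The 3 further genes that were higher in the libraries numbered 1 were POLD4, a small subunit of polymerase delta, at 0.29, CDK6, a G1 kinase, at 0.15 and the histone chaperone ASF1A at 0.11. CDK6 and ASF1A were named after their values were seen, and ASF1A was not called without DSM library 1 (adjusted p = 0.152) or against the libraries numbered 2 alone (0.0512). MKI67 gave 0.08 (edgeR adjusted p = 0.0592), on the other side from most members, and was called without untreated library 2 (0.0268) or SM library 3 (0.0423), without a filter on low counts (0.00761) and with limma voom (0.0392).

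Markers of cell types moved with the replicate number too. The summed level of 11 colon epithelial markers was 13543 to 14875 CPM in the libraries numbered 1 and 11301 to 12035 CPM in the others, a sum made mostly of KRT8, KRT18 and KRT19. CDX2 of the same list went the other way, at 10.0 to 11.4 CPM in the libraries numbered 1 and 11.9 to 15.7 CPM in the others. The 6 fibroblast markers, nearly all of it COL1A1 and LUM, summed to 24.8 to 26.9 CPM against 12.5 to 19.3 CPM, the 4 endothelial markers to 4.02 to 4.42 CPM against 1.84 to 2.82 CPM, and the 5 leukocyte markers, nearly all of it CD68, to 12.7 to 14.3 CPM against 17.2 to 22.4 CPM. Their part in the lower replication genes was not tested.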

How the data were processed

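Per the labels' protocols, TRIzol was used to extract RNA, and libraries came from NuGEN's Universal Plus mRNA-seq kit. The build is hg38, and TopHat2 2.1.1 and featureCounts 2.0.0 are listed, besides DESeq2 1.26.0, cutadapt 3.4, bcl2fastq 2.20.0.422, MultiQC 1.10.1 and FastQC 0.11.9, per the submitters' processing notes. No strand setting, annotation or handling of multi-mapping reads is given in the sources used here. The values tested were the count of reads per gene as the authors deposited it, without normalization. The deposited normalized table was not used.

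Genes were kept by filterByExpr (minimum count 10, minimum total 15), leaving 15619, and scaled by TMM (factors 0.981 to 1.02). All 9 libraries entered 1 robust quasi-likelihood fit in edgeR 4.0.16 (R 4.3.3) with group and replicate number as terms. Tests were two-sided F tests with Benjamini-Hochberg adjustment over all genes at 0.05. CPM printed are counts over library totals and TMM factors. DESeq2 1.42.0 and limma 3.58.1 (voom) were alternatives, with other scalings, filters and left-out libraries. The procedure was tested on simulated data, in which the planted changes were larger than those of the members called between treatments.

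The replicate number was checked for pairing: all 9 correlations of deviations from group means between libraries of the same number lay between 0.227 and 0.582, against -0.404 to 0.161 for different numbers. Deviations within a group sum to 0, so positive correlations of the same number push those of different numbers below 0 on average. The gap between these ranges is thus partly set by the centring. Within a group, libraries were further apart than counting error allows (chi-square over its degrees of freedom 6.50 to 34.0). P-values measure the spread between these libraries that is left after group and replicate number are fitted.

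The members, lists, tests and the comparison of replicate numbers were chosen with earlier results of these data known. The naming rule took every member called in a comparison of treatments (or the 5 with the smallest p), up to 2 called members per role with the largest difference between replicate numbers, 11 members throughout, MKI67, and up to 2 called further pathway genes per role with the smallest p. GINS2, RFC5, GINS3, POLA1 and others outside the rule were named after their values were seen. The values of 1 further pathway gene that the rule would name are not reported here. Coordinates and promoters are RefSeq's, and shared exonic bases are from GENCODE, both on GRCh38.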

Additional observations from a re-analysis of the deposited data

How the results depend on the processing

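Without the replicate block, SM against untreated gave 3 genes and 0 members, and SM against DSM gave 0 genes and 0 members. Over all genes, libraries of the same number deviate together. TK1 and TYMS themselves were not called between replicate numbers, and why members lost their calls without the block was not tested. The block changed no call of DSM against untreated. Without a filter on low counts, SM against untreated gave 701 genes, DSM against untreated 7 genes, SM against DSM 2 members and replicate 3 against 2 gave 1 member. With only the groups compared in the fit, DSM against untreated gave 4 genes, and SM against DSM gave 394 genes and 0 members.

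With libraries or numbers left out, SM against untreated ranged from 110 to 569 genes and 0 to 3 members, DSM against untreated from 0 to 1 genes, and SM against DSM from 121 to 846 genes and 0 to 2 members. The libraries numbered 1 against the others ranged from 4749 to 6635 genes and 30 to 38 members, and replicate 3 against 2 from 177 to 863 genes and 0 to 1 members. No gene named as called and followed through the alternatives changed direction in that comparison. Some uncalled values near 0 changed sign, among them E2F1, MCM2 and PCNA for SM against untreated and TK1 between replicate numbers. The cause of these shifts was not tested beyond what the settings themselves remove.

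With 3 libraries a group, a member's 95% interval in the comparisons of treatments had a median half-width of 0.08 on the log2 scale, and differences well inside that width were not resolved.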

Other observations

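Between the libraries numbered 3 and 2, 3 of the 66 further pathway genes and no member were called, against 3.68% of all genes, which is near the share among the further genes. The cell cycle inhibitor CDKN1A was lower in the libraries numbered 3, with a log2 fold change of -0.53 (SE 0.086, edgeR adjusted p = 0.000578), and it was called under all 16 alternatives. TICRR, which acts in helicase activation, was higher by 0.15 (adjusted p = 0.0250), and CHTF18, of the alternative clamp loader, by 0.22 (adjusted p = 0.00621). TICRR was not called without untreated library 1 (0.0529), untreated library 2 (0.138), untreated library 3 (0.242), DSM library 2 (0.0951) or DSM library 3 (0.0788). CHTF18 was not called without untreated library 2 (0.123), untreated library 3 (0.142), DSM library 2 (0.0835) or DSM library 3 (0.0909).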
